A study of Canis lupus familiaris with 2 samples.

Results

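Transcripts of 6 genes of the extracellular matrix were examined in canine left superior fat pads (LSFPs) after injection of a lentivirus that overexpresses miR-206. The genes were THBS1, THBS4, FN1, COL1A2, FBLN1 and FBN2, and they were chosen on the very differences described here: 5 of them because they were lower in the lenti-miR-206 group, and FBN2 because it went the other way. They are 6 of the 823 genes that could be named in the table, and all of their 11 probe sets in it are described. A probe set is a group of short oligonucleotides that together read 1 transcript on the array. In the lenti-control group mongrel dogs of either sex received a lentivirus with a scramble sequence, and in the lenti-miR-206 group they received the miR-206 lentivirus, both injected directly into the LSFP, a pad that holds nerve ganglia. These details come from the study's account of its lentivirus groups, which got no atrial tachypacing and were sampled after 2 weeks, whereas the arrays themselves are known from the labels alone, which mention no tachypacing and give the time for lenti-miR-206 only. RNA of 3 dogs was mixed in equal amounts for each group, in the labels for a small RNA library but with mRNA read on an Affymetrix array, so each value below is 1 pool, the spread between dogs is unknown, and no test between the groups can be made.

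The extracellular matrix is the protein network that cells deposit around themselves. In and around the atrium, fibroblasts make most of the interstitial collagen, and type I collagen is built from the products of COL1A1 and COL1A2. Fibronectin, the product of FN1, binds collagen and integrins and serves as a scaffold on which other matrix proteins are assembled. Thrombospondins are matricellular proteins, which means that they signal to cells from within the matrix more than they bear load, and THBS1 is known as an activator of latent TGF-beta. Elastic fibres hold an elastin core in a sheath of fibrillin microfibrils, where FBN1 is the main fibrillin of adult tissue, FBN2 is made mostly during development, and fibulin-1 (FBLN1) binds to both elastin and fibronectin.

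The values are log2 intensities after RMA, a method that combines the probes of a set into 1 value after background correction and normalization. The table held 1628 probe sets, none of which differed by less than 2-fold between the arrays, so it is a selection. A probe set of these 6 genes with a smaller difference would be outside it and is not analysed here. Of the 1628 probe sets 24.9% were lower and 75.1% were higher in lenti-miR-206. Among the control probe sets of the array in the table, 13 for bacterial spike-in transcripts had a median log2 difference of -1.08 and 5 for GAPDH had a median of 1.31. The remaining control, for actin, was at 1.41, on the side of GAPDH. The spike-in controls thus went the other way from GAPDH and actin, and none of them was shown to be constant. The controls in the table passed the same 2-fold selection as the other probe sets, so these medians are themselves selected. Differences are lenti-miR-206 minus lenti-control throughout, as deposited unless a reference is named.

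Both thrombospondins were lower in lenti-miR-206, and by the brightest probe set of each gene they had the largest decreases of the 6 genes. The dimmer probe set of THBS1, at -1.12, had a smaller decrease than FN1. THBS4, a thrombospondin found in heart, tendon and muscle, was read by 1 probe set. Its log2 intensity was 7.94 in lenti-control and 5.17 in lenti-miR-206. This is a log2 difference of -2.77, or 6.83-fold, and leaves 14.6% of the lenti-control level. Of the 405 lower probe sets it had the 21st largest difference. The lenti-miR-206 value was among the dimmest of the table on its array, where 6.76% of the probe sets in the table had a lower value. Whether it exceeded background is not known, which leaves the size of the difference uncertain. The probe set is also of the s_at kind, whose probes can hybridize to more than 1 transcript.

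THBS1 was read by 2 probe sets, both lower and by different amounts. The brighter one had log2 intensities of 10.00 in lenti-control and 7.99 in lenti-miR-206. The log2 difference was -2.01, which is 4.03-fold and leaves 24.8% of the lenti-control level. The dimmer one had 8.28 and 7.16, a log2 difference of -1.12, which leaves 46.0%. The probe sets agree on the direction but differ by 0.89 in the size on the log2 scale. Of 269 genes that had several probe sets here, 33 had a wider range between their probe sets and the median range was 0.30. A mean over both probe sets gives THBS1 a log2 difference of -1.57, or 2.96-fold.

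**Figure D1:**
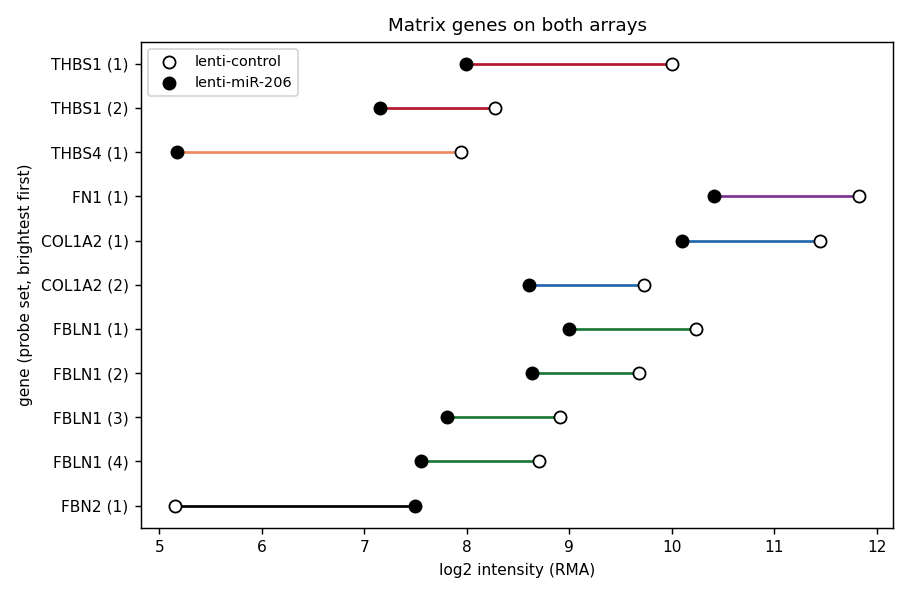
Log2 intensity after RMA (x axis) of the 11 probe sets of the 6 genes (y axis, numbered within a gene from the brightest), with open circles for the lenti-control array and filled circles for the lenti-miR-206 array, each 1 pool of 3 dogs. In 10 probe sets the filled circle lies to the left, and in FBN2 it lies to the right, at 7.49 against 5.16.

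Fibronectin and type I collagen were among the brightest transcripts of the table in lenti-control and were lower in lenti-miR-206 by similar amounts. FN1 had a log2 intensity of 11.83 in lenti-control, where 98.3% of the probe sets had a lower value, and 10.41 in lenti-miR-206. The log2 difference of -1.42, or 2.68-fold, leaves 37.4% of the lenti-control level. The brighter probe set of COL1A2 had 11.45 and 10.10, a log2 difference of -1.35, which leaves 39.3%. With the other probe set, COL1A2 gave 9.73 and 8.61, a log2 difference of -1.12, which leaves 46.1%. By their names both were designed from the same transcript sequence, and they are not independent readings.

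Other chains of the interstitial collagens were lower by nearly the same amount as COL1A2. COL1A1, which encodes the partner chain of COL1A2 in type I collagen, had log2 intensities of 11.63 and 10.31 with its brighter probe set, a log2 difference of -1.31, and -1.14 with the dimmer one. COL3A1, the chain of type III collagen, had 13.02 and 11.91, a log2 difference of -1.11, and its other probe sets had -1.18 and -1.18. The difference of COL1A1 lay 0.033 above that of COL1A2 and the difference of COL3A1 0.24 above it, both within the pooled SD of 0.37 between probe sets of the same gene. That SD describes how well probe sets agree within the 2-fold selection and not how dogs vary. These 3 genes were all of the 11 listed fibrillar collagen genes that the table held. Relative to the spike-in controls little of these decreases was left. COL1A1 was then at -0.24 and -0.059, and COL3A1 at -0.0345, -0.099 and -0.105.

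Fibulin-1 was lower with every probe set of the table, and the gene had the most even readings of the members with several probe sets. The 4 probe sets of FBLN1 had lenti-control log2 intensities of 10.24, 9.68, 8.91 and 8.70. In the same order, the lenti-miR-206 values were 9.00, 8.63, 7.80 and 7.56. Each probe set was thus dimmer in lenti-miR-206, with log2 differences between -1.24 and -1.05, a range of 0.18. The levels left were between 42.5% and 48.2% of lenti-control. The smallest of these differences, -1.05, lay just inside the 2-fold limit of the table.

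FBN2 was the gene that went against the others. Read by 1 probe set, it had a log2 intensity of 5.16 in lenti-control and 7.49 in lenti-miR-206, a log2 difference of 2.34, or 5.05-fold higher. It had the 75th largest difference of the 1223 higher probe sets. The lenti-control value was dim, with 18.2% of the probe sets in the table lower on that array. Whether it exceeded background is not known, and the fold is uncertain. The lenti-miR-206 value was near the middle of the table, with 47.8% of its probe sets lower on that array. The rest of each array is not seen here. No second probe set of FBN2 was in the table. The other fibrillin, FBN1, was bright and, as deposited, lower: it had 11.26 in lenti-control and 10.17 in lenti-miR-206, a log2 difference of -1.08. Relative to the spike-in controls almost nothing of this decrease was left, at -0.0071. MFAP4, a microfibril-associated protein, had 7.04 and 6.03, a log2 difference of -1.01, which turned to 0.070 relative to the spike-in controls. Of 22 listed genes of the elastic fibre and its microfibrils 4 were in the table, and as deposited FBN2 was the one of them that was higher.

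**Figure D2:**
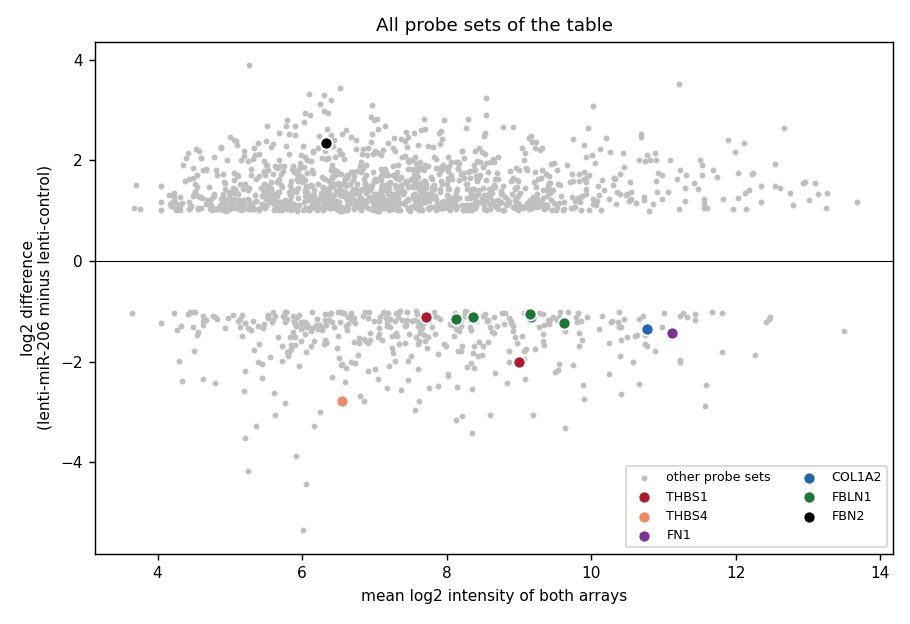
Difference of the arrays in log2 intensity (y axis, positive where lenti-miR-206 was higher) against the mean log2 intensity of both arrays (x axis) for the 1628 probe sets of the table, in grey, with the 11 probe sets of the 6 genes in colour. No point lies between -1 and 1, since smaller differences are outside the table, and THBS4 (-2.77) and FBN2 (2.34) lie farther from it than the other members.

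In total 10 of the 11 probe sets and 5 of the 6 genes were lower, in a table where 24.9% of the probe sets and 25.8% of the named genes were lower. These counts follow from how the genes were chosen, and nothing is read from them. At a limit of 3-fold, 2 probe sets of the members were lower, 1 each of THBS1 and THBS4, and 1 was higher, that of FBN2, against 8.6% of all probe sets that were lower and 24.5% that were higher by that much. Of the 11 probe sets 6 lay among the 407 brightest of the table by mean log2 intensity, where 29.7% of all probe sets were lower. The probe sets of THBS4 and FBN2 lay in a dimmer part, with means between 6.05 and 7.18, where 21.1% were lower.

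Distances between genes on the same pair of arrays do not depend on the reference level. From the largest decrease to the smallest, the order by the brightest probe set was THBS4, THBS1, FN1, COL1A2 and FBLN1. THBS1 lay 0.76 above THBS4 on the log2 scale, which is less than the 0.89 between the probe sets of THBS1 itself. FN1 lay 0.59 above THBS1, but its -1.42 falls between the values of the THBS1 probe sets, -2.01 and -1.12. COL1A2 lay 0.073 above FN1 and FBLN1 lay 0.11 above COL1A2, both less than the median range of 0.30 within a gene. The order of FN1, COL1A2 and FBLN1 is therefore not resolved, and that of THBS1 depends on the probe set. FBN2 lay 3.42 above FBN1 and 3.57 above FBLN1. Since FBN2 was chosen for its direction and the selection keeps higher and lower genes apart, a wide gap was set in advance, and its size rests on the dim lenti-control value of FBN2.

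The choice of reference decides how much of the decreases is left. Relative to the median of the spike-in controls, the log2 differences were -1.69 for THBS4 and -0.94 for the brighter probe set of THBS1. They were -0.34 for FN1, -0.27 for COL1A2 and -0.16 for FBLN1 with the brightest probe sets. The dimmer probe sets of THBS1 and COL1A2 were then at -0.044 and -0.041. For FBLN1, the second brightest probe set turned higher, at 0.025. The spike-in controls as deposited lay between -1.17 and -1.001, at the limit of the selection, and the median of all 405 lower probe sets was -1.33, so a small distance from the spike-in controls was common in the table. THBS4 alone of the 6 genes was still at least 2-fold lower relative to them. FBN2 was 10.6-fold higher relative to the spike-in controls. With GAPDH as the reference, the 10 lower probe sets lay between -4.08 for THBS4 and -2.36 for FBLN1, and every lower probe set of the table moves down by the same amount. FBN2 was then 2.04-fold higher, a log2 difference of 1.03. FBN2 was higher with either reference, as were many genes of the table: 646 of the 823 named genes were higher relative to the spike-in controls and 303 relative to the GAPDH controls.

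**Figure D3:**
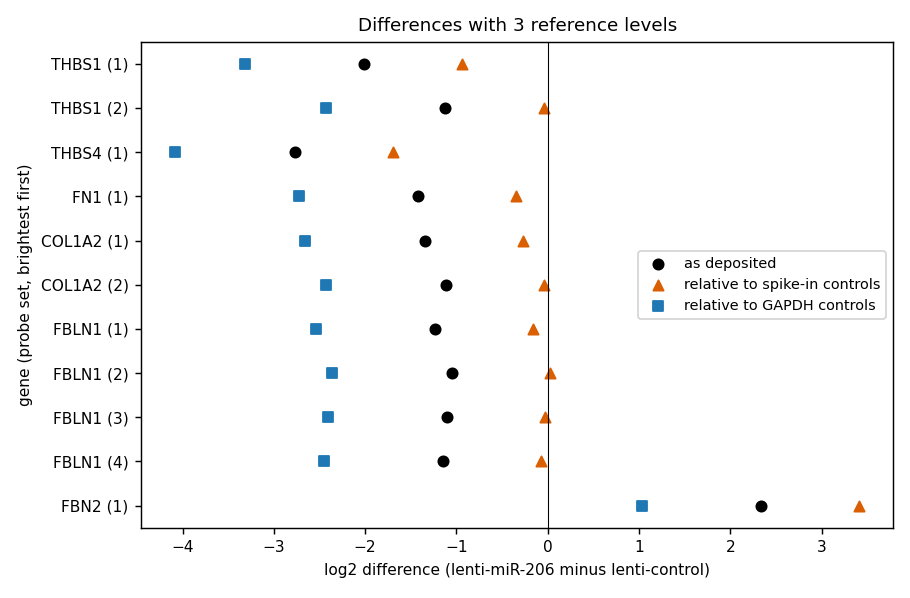
Log2 difference (x axis, positive where lenti-miR-206 was higher) of the 11 probe sets (y axis, numbered within a gene from the brightest) as deposited (circles), relative to the median of 13 spike-in controls (triangles) and relative to the median of 5 GAPDH controls (squares). The triangles of FN1, COL1A2 and FBLN1 lie close to 0, between -0.34 and 0.025, whereas THBS4 stays at -1.69 and FBN2 lies above 0 with each reference.

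Of 246 genes in 11 lists of the matrix, its enzymes and its receptors, 20 were in the table, 14 lower and 6 higher, with a median log2 difference of -1.17. Over all 823 named genes the median was 1.17 and 25.8% were lower. Without the 6 members the lists had 14 genes in the table, 9 lower and 5 higher, with a median of -1.05. Relative to the spike-in controls 12 of the 20 were lower and 8 higher, and relative to the GAPDH controls 16 were lower and 4 higher. Of all 823 named genes 177 were lower relative to the spike-in controls and 520 relative to the GAPDH controls. The table held no gene from the lists of other collagens, of collagen processing and cross-linking, and of matrix proteases and their inhibitors, which have 32, 31 and 37 genes. Their genes are not analysed here, and their levels are not known from this.

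Among the other matricellular proteins, CCN1, which is induced early by growth factors, had 9.50 in lenti-control and 8.27 in lenti-miR-206, a log2 difference of -1.23. SPP1, osteopontin, had 7.97 and 6.95, a log2 difference of -1.02, which turned to 0.056 relative to the spike-in controls. As deposited, CCN3 was the one matricellular gene that was higher: its 3 probe sets had log2 differences of 1.97, 2.43 and 1.23, and the last of them turned to -0.074 relative to the GAPDH controls. LAMB1, a laminin chain of the basement membrane, had log2 differences of -1.39, -1.24 and -1.13 with 3 probe sets. EPYC, a small leucine-rich proteoglycan of cartilage, had 6.14 and 8.37, a log2 difference of 2.24.

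Receptors went both ways. SDC2, a heparan sulfate proteoglycan of the cell surface that binds fibronectin, had log2 differences of -1.44 and -1.74 with 2 probe sets. ITGAV, whose integrins bind fibronectin and latent TGF-beta, had 9.46 and 10.47 with the brighter probe set, a log2 difference of 1.01, and 1.52 with the other. ITGB6, a partner chain of ITGAV, had 3.48 and 5.66, a log2 difference of 2.18. Its lenti-control value was near the lowest of the table in that group, 2.95. ITGA6, a chain of laminin receptors, had 4.27 and 5.30, a log2 difference of 1.02. Relative to the GAPDH controls ITGA6 (-0.28) and the brighter probe set of ITGAV (-0.30) turned lower. TGFBR2, the type II receptor of TGF-beta, was the one gene of 25 listed for this pathway in the table and had a log2 difference of -1.25.

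**Figure D4:**
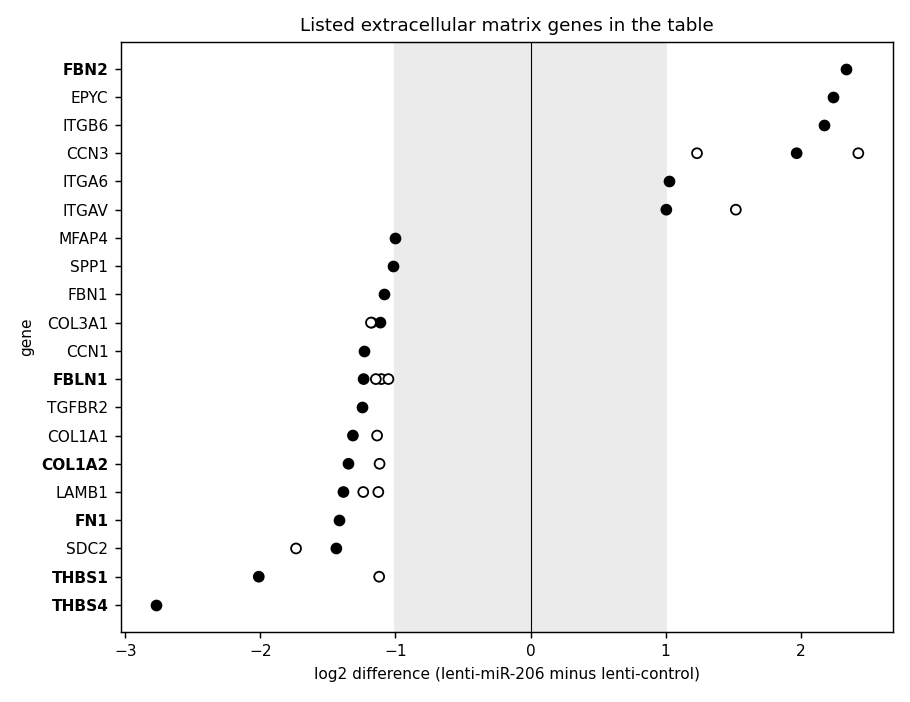
Log2 difference (x axis, positive where lenti-miR-206 was higher) of every probe set of the 20 listed matrix genes in the table (y axis, the 6 members in bold), with filled circles for the brightest probe set of a gene and open circles for its others. The grey band marks the differences under 2-fold that the selection leaves out, 14 genes lie to its left, and FBN2, EPYC, ITGB6, CCN3, ITGA6 and ITGAV lie to its right.

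Markers of several cell types were in the table with these genes, and their counts stand beside the 212 lower and 611 higher of all 823 named genes. The summed intensity of all 823 was 148.6% of lenti-control. Fibroblasts were represented by 4 of 12 listed genes, all lower, with lenti-control log2 values from 9.22 to 13.02 and lenti-miR-206 values from 7.54 to 11.91. COL1A2 is itself one of them, with COL1A1, COL3A1 and S100A4 (-1.68). The summed intensity of the other 3 was 44.0% of lenti-control, and the COL1A2 probe sets were at 39.3% and 46.1%. That sum rests mostly on the bright collagens COL3A1 and COL1A1, and S100A4 alone was at 31.2%. Every lower gene of the table was at least 2-fold lower, so nothing is read from how close these values are. The remaining fibroblast markers, PDGFRA, DCN and LUM among them, were outside the table. The labelled tissue is a cardiac fat pad. For the RNA of its tachypacing comparison the study states that fat was left out as far as possible. Whether this was done for the array RNA is not known here. Of 21 listed adipocyte genes 13 were in the table, with the largest decreases in CIDEA (-2.87), FASN (-2.74) and CIDEC (-2.47). ADIPOQ was bright on both arrays, at 13.21 and 11.34, and FABP4 was too, at 14.20 and 12.80, so the defining markers of fat cells were present in both pools. Of these adipocyte genes 12 were lower, UCP1 was higher, and their summed intensity was 29.8% of lenti-control. Of 23 listed cardiomyocyte genes 18 were in the table and all were higher, with a summed intensity of 280% of lenti-control. For smooth muscle and pericytes 5 of 14 were in the table and higher too, at 300.3%. The brightest of these 5 was DES, at 9.15 in lenti-control and 10.71 in lenti-miR-206, and their sum rests largely on it. Cardiomyocytes make DES too, so that sum is not read as smooth muscle alone. For macrophages 2 of 13 were in the table and higher, at 218%. Relative to the GAPDH controls both turned lower, LYZ to -0.18 and CYBB to -0.25, as did 2 of the 18 cardiomyocyte genes. For endothelium 1 of 13 was in the table, MMRN1, which was lower, at 44.98%. All 6 neuronal genes in the table, of 18 listed, were lower, with a summed intensity of 13.8% of lenti-control, and all 3 of 10 for glia were lower, at 32.05%. Relative to the spike-in controls the 4 fibroblast, 3 glial and 6 neuronal genes stayed lower, some of them barely. COL3A1 was then at -0.0345 and S100A4 at -0.60, and PMP22 of the glia at -0.12 and S100B at -1.88. MMRN1 was at -0.076, and of the 13 adipocyte genes 11 were lower and 2 higher. The share of each cell type in the pools was not measured, and its part in the matrix differences was not tested. In pooled tissue RNA, fewer cells of a type and less RNA per cell cannot be told apart, and with 1 pool per group neither can the lentivirus and the dogs that were pooled.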

How the data were processed

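The mRNA of LSFP tissue was profiled on 2 Affymetrix canine arrays, 1 pool of 3 dogs for each group. Values were deposited as log2 intensities from RMA, as the submitters' processing notes name it. Its version, the software and which arrays were normalized together: not given in the sources used here. Besides 1628 probe sets the table held 19 controls. No detection calls were used, and precision is limited by the number of arrays. Log2 differences were computed with pandas 2.3.3 and numpy 2.4.6 under Python 3.11.15, drawn with matplotlib 3.10.9, and the functions were tested on simulated data. Symbols came from the platform annotation and were updated through Entrez identifiers with the gene table of UU_Cfam_GSD_1.0 for 1102 probe sets, 80 kept theirs, 22 had several and 424 none. The probe set with the highest mean stood for a gene. Every probe set of the 6 genes, every listed matrix gene in the table and at most the 3 genes of each cell type list with the largest differences were to be named. ADIPOQ, FABP4, UCP1, PDGFRA, DCN and LUM fall outside that rule and were picked after values were seen. The members, lists and alternatives were chosen with earlier results of these data known. No test was made. The alternatives were the mean over probe sets, leaving out dim or s_at and x_at probe sets, spike-in and GAPDH references, and a 3-fold limit. No coordinates or sequences are printed, since none were used here.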

Additional observations from a re-analysis of the deposited data

How the results depend on the processing

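With no replicates, a log2 difference was read as moved when it shifted by more than the pooled SD of 0.37 between probe sets of a gene, and a count when it changed by more than 1.5 times. Of 55 recomputed log2 differences and counts 37 did not move by these rules, 18 did, and no log2 difference among them changed sign. Much of this tally was set in advance. Each reference takes 1 constant, -1.08 or 1.31, from every gene, and both exceed 0.37 in size, so every log2 difference had to move. The mean over probe sets could not move THBS4, FN1 or FBN2, which have 1 probe set each. The GAPDH reference could not turn a decrease around. The tally is therefore no measure of robustness. Relative to the spike-in controls the log2 differences were -0.94 for THBS1, -1.69 for THBS4, -0.34 for FN1, -0.27 for COL1A2, -0.16 for FBLN1 and 3.41 for FBN2, with a median of -0.31. Relative to the GAPDH controls they were -3.32, -4.08, -2.73, -2.65, -2.54 and 1.03, with a median of -2.69. The mean of all probe sets moved THBS1 to -1.57. Without the s_at and x_at probe sets there were 5 lower probe sets in place of 10, by taking out the others, among them the one of THBS4, for which no value remained. At 3-fold 2 genes and 2 probe sets were lower in place of 5 and 10. Leaving out dim probe sets, by the higher of their values against the table median of 7.17, changed nothing for the 6 genes. That rule could not take out THBS4 or FBN2. THBS4 passes only through its lenti-control value, 7.94, and FBN2 only through its lenti-miR-206 value, 7.49. The dim values of both genes were therefore not checked by it. No paired analysis was possible because each group has 1 array. Leaving out a replicate was not possible for the same reason.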

Other observations

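Genes of families that include secreted inhibitors of Wnt signalling were chosen after their values were seen. Not every member of these families need be such an inhibitor. Of 10 genes of the SFRP, WIF and DKK families 5 were in the table, 4 lower and 1 higher, where 212 of all 823 named genes were lower. Their summed intensity was 180% of lenti-control, since the brightest, DKK3, was the higher one, and that of all 823 named genes was 148.6%. WIF1 had log2 differences of -1.73, -2.02 and -1.49 with 3 probe sets. FRZB had 9.37 in lenti-control and 7.94 in lenti-miR-206, a log2 difference of -1.44. SFRP2 had a log2 difference of -1.65 and SFRP4 had -1.27, -2.39 and -2.05, but their lenti-miR-206 values were dim. They lay between 3.14 and 5.62, where the lowest lenti-miR-206 value of the table was 3.13. DKK3 had 10.06 in lenti-control and 11.79 in lenti-miR-206, with log2 differences of 1.74 and 1.35, and it was higher relative to the GAPDH controls too (0.43 and 0.044). Relative to the spike-in controls the lower genes stayed lower by less. Their brightest probe sets were then at -0.66 for WIF1, -0.36 for FRZB, -0.57 for SFRP2 and -0.19 for SFRP4. The other probe sets of SFRP4 were at -1.31 and -0.97.

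Other matrix and cell surface genes chosen after their values were seen were CILP, GPC3, CCDC80, PMEPA1 and ADAM9. CILP, a matrix protein first known from cartilage, had log2 differences of -2.34 and -1.04, a gap between probe sets wider than that of THBS1, and the second turned to 0.041 relative to the spike-in controls. The glypican GPC3 had -1.98 and -1.32. CCDC80 had 11.23 and 10.08, a log2 difference of -1.15, and PMEPA1, a transcript induced by TGF-beta, had -1.22. Relative to the spike-in controls GPC3 was at -0.90 and -0.24, CCDC80 at -0.070 and PMEPA1 at -0.14. ADAM9, a membrane protease, had 1.22, which turned to -0.088 relative to the GAPDH controls.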
